A study of Mus musculus with 2 samples.

Results

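Dendritic cells were 156 of the 13432 single cells profiled from regenerating mouse muscle. They were chosen by their own RNA, because no cell annotation was used here. A cell was taken when it held at least 1 unique molecular identifier (UMI, 1 captured RNA molecule) of 2 or more of Flt3, Xcr1, Clec9a, Ccr7, Cd209a and Zbtb46, and of Cd74. It also had to hold no more than 1 of C1qa, C1qb and C1qc, and none of Cd3e, Cd79a, Cdh5 and Pdgfra. These genes therefore carry no finding here, and their values are given as a description.

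The study injected cardiotoxin into the gastrocnemius of mice and took the muscle 14 days later for 5′ droplet RNA sequencing. Its methods describe male mice, either C57BL/6J wild type (WT) or with a global knockout (KO) of Gsdme, the gene of the pore-forming protein gasdermin E, with 5 mice per genotype. The age of the mice and the strain background of the knockout were not given in the sources used here, nor whether the 5 mice of a genotype were pooled or which part of Gsdme was removed. Since the knockout was global, every cell type of the animal carried it, and both genotypes were injured, so no uninjured muscle enters the comparison.

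Each genotype was 1 library, so no difference between them has a replicate check, and no p-value is given. Intervals are 95% and cover counting error only. The 2 libraries held 44758518 and 50930010 UMIs in 6354 and 7078 cells for WT and KO. Gsdme itself was not lower in the KO library. Over all cells it had 225 UMIs in the WT-labelled library and 237 in the KO-labelled library, a log2 ratio of KO to WT of -0.11 (-0.38 to 0.16). In dendritic cells it had 8 and 12 UMIs, or 11.0 and 13.8 CPM (UMIs of the gene per 1000000 UMIs of the cells), with a log2 ratio of 0.33 (-1.08 to 1.83). At least 1 Gsdme UMI was seen in 7.14% and 12.8% of dendritic cells, and in 4.72% and 3.65% of fibro-adipogenic progenitors (FAPs, the Pdgfra and Dcn positive stromal cells of muscle). The RNA therefore gave no check of the genotype labels, and the groups are named by their labels only.

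Dendritic cells take up material from damaged tissue, cut it into peptides and show these on major histocompatibility complex (MHC) molecules to T cells. Conventional type 1 cells (cDC1), which carry XCR1 and CLEC9A, are known for presenting the content of dead cells to CD8 T cells. Type 2 cells (cDC2) mainly serve CD4 T cells. Both switch on CCR7 when they mature, and this receptor leads them along lymph vessels to the lymph node.

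The loading of peptide for CD4 T cells rests on the MHC class II genes, which are switched on together by CIITA through a short conserved promoter. The 3 promoter stretches below are shown because they belong to class II genes measured in these cells, and because each holds the Y box of that promoter, printed in capitals (CTGATTGG). They run 5′ to 3′ on the gene's strand and end at the base before the annotated start, except that of H2-Eb1, which stops a few bases short of it, and they come from RefSeq on GRCm38.p6. H2-Aa lies on the minus strand at chr17:34287824-34287924, with the motif 51 bases before the start. H2-Eb1 is on the plus strand at chr17:34305755-34305862, with the motif 62 bases before the start. H2-Oa is on the plus strand at chr17:34092283-34092378, with the motif 46 bases before the start.
H2-Aa: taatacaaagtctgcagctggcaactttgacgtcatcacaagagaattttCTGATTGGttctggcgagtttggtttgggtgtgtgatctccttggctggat
H2-Eb1: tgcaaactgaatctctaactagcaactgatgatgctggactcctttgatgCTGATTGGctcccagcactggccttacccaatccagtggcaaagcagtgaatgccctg
H2-Oa: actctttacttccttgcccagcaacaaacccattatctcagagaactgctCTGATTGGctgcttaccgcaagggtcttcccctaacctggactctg
These letters, read on both strands, were in 3 of the 10 promoters of the 9 class II list genes that matched the RefSeq table (30.0%). Over the whole table they were in 1346 of 32851 promoters (4.10%). A match describes the letters of the window only.

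The library labelled WT gave 70 dendritic cells of 6354 (1.10%, 0.86 to 1.39) and the KO-labelled library gave 86 of 7078 (1.22%, 0.973 to 1.5). The difference was 0.113 points of percent, with an interval of -0.255 to 0.477 that spans 0. Among cells with a UMI of Ptprc, the pan-leukocyte gene that encodes CD45, the shares were 6.0% (62 of 1033) and 6.02% (80 of 1330). A difference in the share of dendritic cells was thus not detectable at these cell numbers.

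Just outside the rule lay 63 and 82 cells that met every other condition but had only 1 of the 6 markers. Just inside it lay 38 and 48 cells with exactly 2. The cells inside were somewhat deeper, with medians of 8953.5 and 9572.5 UMIs against 7519 and 7310 outside. The commonest pairs were Flt3 with Cd209a, in 6 and 15 cells, and Cd209a with Zbtb46, in 8 and 12 cells. Of the 4 barcodes present in both libraries, 0 belonged to a dendritic cell. The dendritic cells held 730228 and 869480 UMIs in all, with medians of 9526 and 10155 per cell and a range of 766 to 28682 over both libraries.

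Markers of the other cells that the rule could have caught were mostly low. The rule's own limits on C1q genes, Cd3e, Cd79a, Cdh5 and Pdgfra help to keep them low. These values therefore describe the cells and do not check the name dendritic cells, which comes from the rule. The 10 listed macrophage genes summed to 316.3 and 377.2 CPM in the dendritic cells of both libraries (WT, KO). In cells with at least 2 of the 3 C1q genes, the macrophages used for comparison here (769 and 964 cells), they summed to 31176.2 and 29607.3 CPM. Of these 10 genes, 7 and 8 had a UMI in dendritic cells. Pf4, a chemokine gene of tissue macrophages, had 0 and 1 UMI. Others had more, since the Cd209a group described below alone held 53 and 62 UMIs of Mrc1, 48 and 53 of Cd163, and 17 and 24 of Adgre1. Genes of T cells summed to 3 and 2 UMIs, of NK cells to 0 and 1, and of neutrophils to 1 and 0. Those of B cells summed to 37 and 41 UMIs, or 50.7 and 47.2 CPM. FAP genes came to 484.8 and 420.9 CPM. The plasmacytoid list summed to 402.6 and 243.8 CPM, against 664.9 and 594.6 CPM in macrophages, and most of it was Bst2, with 210 and 138 UMIs. Of that list, Klk1 and Ly6d were at 0 and Siglech had 3 UMIs in each library. Some overlap with monocytes was present, since the monocyte list summed to 2314.3 and 2905.2 CPM. It summed to 17219.5 and 11055.0 CPM in cells chosen for both Plac8 and Lyz2, which are themselves on that list. Adgre1 and Fcgr1, genes of macrophages and monocyte-derived cells, were both absent from 52 and 56 of the cells.

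The dendritic cells fell into 3 main groups by the markers of the rule, assigned in a fixed order. Cells with Ccr7 came first, with 21 of 70 (30.0%) in the WT-labelled library and 19 of 86 (22.1%) in the KO-labelled library. Cells with Xcr1 or Clec9a numbered 25 (35.7%) and 35 (40.7%), and cells with Cd209a numbered 22 (31.4%) and 31 (36.0%). Only 2 and 1 cells had Flt3 and Zbtb46 alone. For each group the interval of the difference between libraries spanned 0. For the Ccr7 group the difference was -7.91 points (-21.7 to 5.76), for the Xcr1/Clec9a group 4.98 (-10.3 to 19.7), and for the Cd209a group 4.62 (-10.3 to 18.9). The order matters, since 11 of the 21 and 12 of the 19 Ccr7 cells also held Cd209a, as did 6 of the 25 and 10 of the 35 Xcr1/Clec9a cells. In FAPs, which should lack Cd209a, 0.262% and 0.208% of cells held it, at median depths of 8142 and 8712 UMIs.

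**Figure D1:**
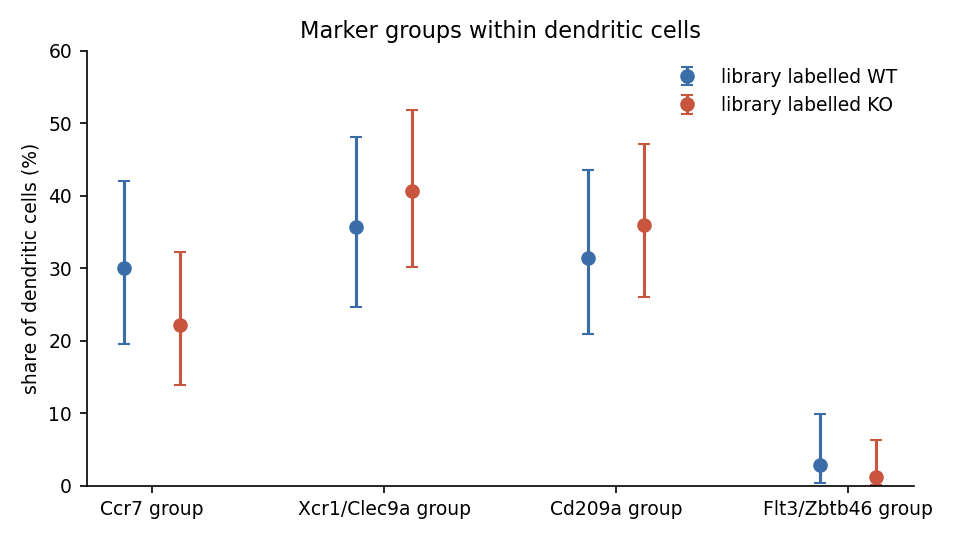
Shares of the 4 marker groups among dendritic cells, in percent (vertical axis), for the libraries labelled WT and KO. Points are shares and bars are exact 95% binomial intervals, and the bars of both libraries overlap for every group.

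Genes that the rule did not use were then compared between each group and the other dendritic cells of the same library, as CPM of summed UMIs. A gene was tested with at least 20 UMIs in each library, and counted as higher when it passed 1.5-fold in both libraries. The 20 UMIs were summed over the group and the other dendritic cells, so a gene could pass through the group alone. Of 3579 genes tested, 6.04% passed for the Ccr7 group, 5.28% for the Xcr1/Clec9a group and 9.53% for the Cd209a group.

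The Ccr7 group carried genes of mature, migrating dendritic cells, with 9 of the 10 measured higher in both libraries. Of these, Fscn1, Il4i1, Cacnb3 and Ccl5 reached 20 UMIs only through the Ccr7 group, so they could hardly come out otherwise. Ccl22, Relb, Tmem123, Cd40 and Traf1 had 20 or more UMIs in the other dendritic cells as well. Fscn1, the actin-bundling protein fascin of dendritic extensions, was at 772.7 CPM against 1.97 CPM in the other dendritic cells of the WT-labelled library. In the KO-labelled library it was at 256.5 against 4.61 CPM. These are log2 ratios of 8.62 (6.12 to 13.93) and 5.80 (4.18 to 8.12), wide because the other cells held only 1 and 3 UMIs. Stromal cells had it too, since 31.1% and 25.3% of FAPs held a UMI of it. Il12b, the p40 subunit shared by IL-12 and IL-23, was at 440.3 against 0 CPM and at 531.3 against 12.3 CPM. Il4i1, a secreted amino acid oxidase that restrains T cells, was at 247.1 against 1.97 CPM and at 169.5 against 1.54 CPM, or log2 6.97 (4.43 to 12.30) and 6.79 (4.22 to 12.13) over 1 UMI in each library. Ccl22, a chemokine that draws CCR4-bearing T cells, was at 1684.7 against 51.2 CPM (log2 5.04) and at 467.2 against 147.4 CPM (log2 1.66). Serpinb6b, a serine protease inhibitor, stood at 480.7 against 27.6 CPM and at 549.6 against 27.6 CPM. The exception was Ccl17, another CCR4 ligand, whose log2 ratio was 5.47 in the WT-labelled library, with 210 of its UMIs in 1 cell, and 0.35 (-0.76 to 1.38) in the KO-labelled library.

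Within the Ccr7 group, single cells differed widely. Ccr7 ran from 1 to 49 UMIs a cell with a median of 8 in the WT-labelled library, and from 1 to 34 with a median of 4 in the KO-labelled library. Fscn1 was detected in 6 of 21 and 6 of 19 of these cells. All 6 Fscn1 cells of the WT-labelled library held Ccl5, a T cell attracting chemokine, with a median of 306 UMIs. Of the 6 in the KO-labelled library only 2 held it, and 1 cell had 582 of the group's 586 Ccl5 UMIs. Cd209a was seen in 11 of the 15 Ccr7 cells without Fscn1 in the WT-labelled library, and in 0 of the 6 with it. In the KO-labelled library it was seen in 10 of 13 and in 2 of 6. Ccr7 itself had medians of 21.5 and 10.5 UMIs in the cells with Fscn1, against 6 and 4 in those without. Ccr7 and Cd209a belong to the rule, so these values describe the cells and define no subset.

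**Figure D2:**
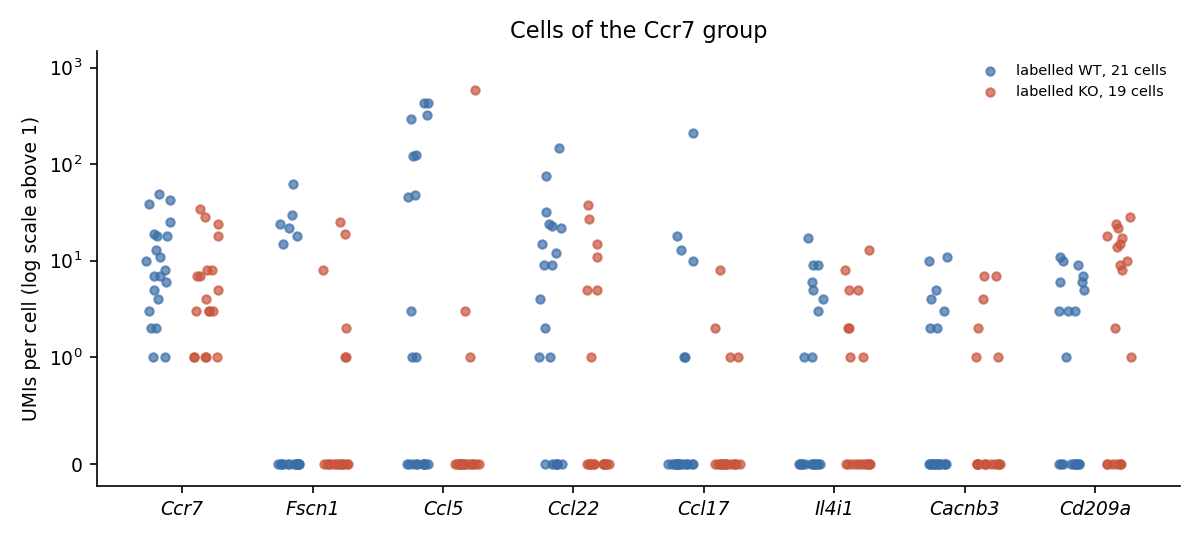
UMIs per cell of selected genes in each cell of the Ccr7 group, for the libraries labelled WT and KO. Each point is 1 cell, and the vertical axis is linear up to 1 UMI and logarithmic above. Ccl5 reaches 436 UMIs in the library labelled WT and 582 in 1 cell of the library labelled KO.

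The Xcr1/Clec9a group carried the cDC1 genes, with 7 of the 8 measured higher in both libraries. Of these, Cadm1 and Itgae reached 20 UMIs only through this group, so they could hardly come out otherwise. The same held for Ifi205 in the WT-labelled library. Cadm1, an adhesion molecule of cDC1, was at 254.2 against 10.8 CPM in the WT-labelled library and at 302.6 against 24.7 CPM in the KO-labelled library. Irf8, the transcription factor that cDC1 need to form, had log2 ratios of 2.35 and 1.64. Wdfy4, which cross-presentation of dead-cell antigen requires, had 1.98 and 1.82, and Naaa, a lysosomal amidase, had 1.79 and 1.68. Itgae, the CD103 integrin chain, had 5.11 and 2.19. Batf3, the partner of IRF8, was the exception at -0.38 and -0.45. Outside the list, Ppt1, a lysosomal thioesterase, had log2 ratios of 4.6 and 2.85. Havcr2, the checkpoint receptor TIM-3, had 2.85 and 2.68.

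The Cd209a group carried cDC2 genes less fully, with 5 of the 8 measured higher in both libraries than in the other dendritic cells. The list was not particular to this group. Its 12 genes summed to 2634.2 and 2937.1 CPM there, to 2806.7 and 2338.3 CPM in macrophages, and to 2441.2 and 1826.3 CPM in FAPs. Mgl2, a galactose-binding lectin, was at 820.9 against 228.1 CPM in the WT-labelled library and at 589.7 against 238.7 CPM in the KO-labelled library, with log2 ratios of 1.85 and 1.30. Irf4, the transcription factor of cDC2, had too few UMIs to be among the 8. It had 12 UMIs against 2 (log2 3.78, 1.62 to 6.98) and 38 against 18 (2.26, 1.41 to 3.15). Il1r2, the decoy receptor for IL-1, was lower at -1.55 and -0.85. Retnla, a secreted protein of type 2 responses, was at 1267.5 against 261.5 CPM and at 1277.0 against 271.9 CPM. These were 281 against 133 UMIs and 340 against 164 UMIs, and single cells held 66.9% and 38.3% of all of them. Each such cell held more than all dendritic cells outside the group together. Both cells therefore lie in the Cd209a group and give most of its Retnla, and the ratio without them was not tested. The monocyte list moved with this group, with 4 of 6 genes higher in both libraries and medians of 1.06 and 1.67. Ccr2, the receptor that brings monocytes into tissue, had log2 ratios of 1.73 and 0.93. Macrophage genes moved with the group as well, since their list summed to 636.0 and 612.2 CPM there, against 142.0 and 216.5 CPM in the Xcr1/Clec9a group. Cd163, a scavenger receptor of macrophages, was among the 8 leading genes with log2 ratios of 1.98 and 2.05, Mrc1, the mannose receptor, had 2.40 and 0.78, and Adgre1, the F4/80 antigen, had 1.29 and 1.24. The part of such cells in the values of this group was not tested. Cells of the cDC2 kind and monocyte-derived cells cannot be told apart by this rule.

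**Figure D3:**
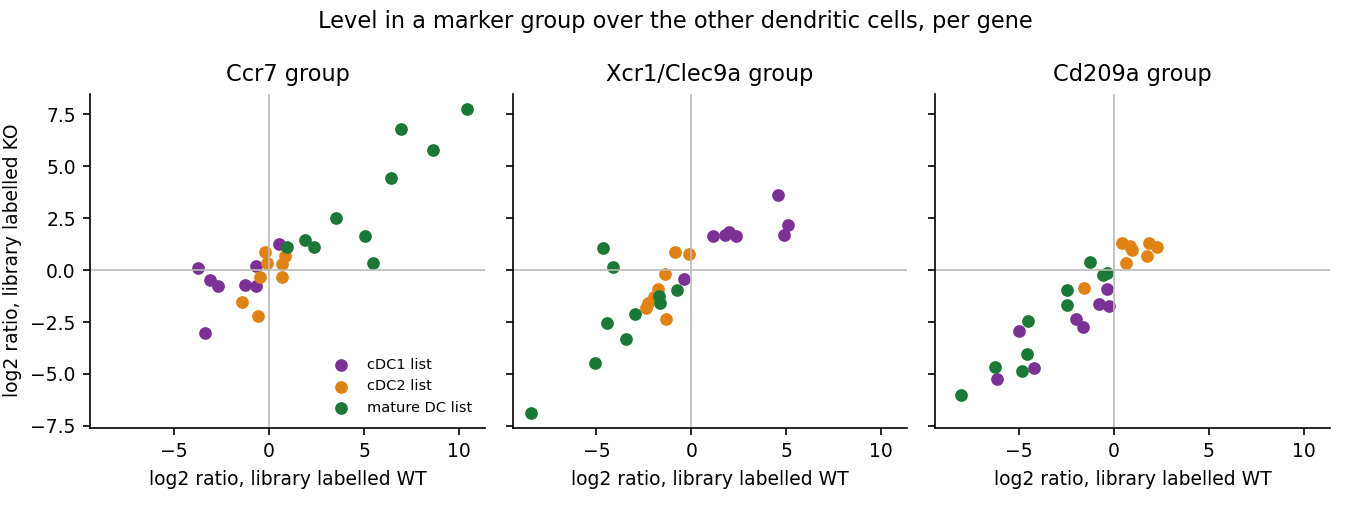
Log2 ratio of CPM in each marker group over the other dendritic cells, with WT on the horizontal and KO on the vertical axis. Each point is 1 gene of the cDC1, cDC2 or mature list, and a level of 0 was set to 3 UMIs. Mature genes lie at the upper right for the Ccr7 group and cDC1 genes for the Xcr1/Clec9a group, Batf3 excepted at -0.38 and -0.45.

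Against macrophages, the most abundant immune cells compared here, dendritic cells had more of the class II genes. The rule required Cd74, the class II invariant chain, in every dendritic cell and not in macrophages, so part of this difference may be set by the choice of cells. Of 9282 genes tested, 9.63% were higher and 28.5% lower in dendritic cells in both libraries. Of the 10 class II genes measured, 6 were higher in both and 1 was lower, with medians of 0.74 and 0.67 beside -0.33 and -0.32 over all genes. H2-Ab1, a chain of the classical class II molecule, was at 12100.3 against 6656.4 CPM in the WT-labelled library and at 13787.6 against 8427.4 CPM in the KO-labelled library. H2-Aa, the partner chain, was at 11025.3 against 7166.9 CPM and at 11887.6 against 8603.2 CPM, and H2-Eb1 was at 9891.4 against 6411.0 CPM and at 11038.8 against 7262.0 CPM. The wider gaps were in the accessory chains. H2-Oa and H2-Ob form the H2-O molecule that tempers peptide loading, and H2-Oa was at 73.9 against 0.221 CPM and at 75.9 against 0.906 CPM, which are log2 ratios of 8.38 (5.85 to 13.71) and 6.39 (5.09 to 8.06). H2-Ob had log2 ratios of 3.80 and 3.37, and H2-DMb2, a chain of the peptide exchanger, had 2.99 and 2.90. The gene that was lower is Ctss, the protease that trims the class II invariant chain, at log2 -1.26 and -0.98. In FAPs, which should lack these molecules, H2-Aa was at 28.6 and 23.4 CPM.

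Several other lists stood on the side of dendritic cells. Of 10 costimulatory genes 4 were higher in both libraries and 0 lower, with medians of 0.62 and 0.44, and Cd80, a ligand of CD28, had 2.0 and 1.22. Of 19 transcription factors 7 were higher and 3 lower, and Irf8 was at 449.2 against 169.3 CPM and at 401.4 against 177.0 CPM. The marker groups did not share this Irf8 level. It was at 915.8 and 646.9 CPM in the Xcr1/Clec9a group but at 9.02 and 15.0 CPM in the Cd209a group. At least 1 Irf8 UMI was seen in 41.4% and 41.9% of dendritic cells, against 47.2% and 47.8% of macrophages. Of 14 migration genes 7 were higher and 5 lower. Of 16 class I genes 4 were higher and 1 lower, and Psmb8, an immunoproteasome subunit, had log2 ratios of 1.62 and 1.55.

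Other lists stood on the side of macrophages. Of 26 immediate early and heat-shock genes 0 were higher and 22 lower in dendritic cells in both libraries, with medians of -1.27 and -1.20, and Egr1 had -3.36 and -2.99. Of 17 pattern recognition genes 2 were higher and 13 lower, with medians of -1.86 and -1.50, and Tlr2 had -2.99 and -2.57. Csf1r, the growth factor receptor of macrophages, had -4.12 and -4.46. Of 24 interferon-response genes 2 were higher and 13 lower. These ratios compare cells that the C1q genes and Cd74 of the rule help to separate, so they describe the cells and test nothing.

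Few genes were near absent from all the other immune cells compared, namely macrophages, monocytes and B cells. Il12b was at 134.2 and 142.6 CPM in dendritic cells and at 0 in the other 3 cell types in both libraries. Serpinb6b had log2 ratios of 6.84 and 6.55 over them, and Ccl22 had 6.16 and 5.93. Klrd1, the CD94 chain of NK receptors, had 4.92 and 4.97, beside the near absence of NK cell genes given above.

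The libraries labelled WT and KO were next compared within the dendritic cells. Of 5786 genes tested, 705 were past 1.5-fold higher in the KO-labelled library (12.2%) and 800 past it lower (13.8%), with a median log2 ratio of -0.02. Counts are given in the order WT and KO, followed in parentheses by the log2 ratio of KO to WT with its interval. With 70 and 86 cells, a few cells can set such a value, so the top cell's share is given for the genes below where it was over 30% in a library.

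Class II genes differed little. Of the 10 measured, 1 was higher past 1.5-fold in the KO-labelled library and 0 lower, with a median of 0.17. The 1 gene was Ciita, the master regulator of the list, with 17 and 42 UMIs and a log2 ratio of 1.05 (0.21 to 1.96), while in macrophages it had 0.48. The class II list had a median of 0.26 in macrophages. Of 16 class I genes 1 was higher and 1 lower. The lower one was Tapbpl, a peptide editor, with 24 and 13 UMIs (-1.14, -2.23 to -0.11) and 33.3% of its WT UMIs in 1 cell. The higher one was Erap1, which trims peptides, with 11 and 22 UMIs (0.75, -0.36 to 1.94), an interval that spans 0. Among 10 costimulatory genes, Havcr2 was higher, with 62 and 115 UMIs and a log2 ratio of 0.64. Most of its UMIs, 50 and 96, were in the Xcr1/Clec9a group, where the ratio was 0.42 (-0.09 to 0.95).

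Cell cycle genes were lower in the KO-labelled library, in 13 of the 15 measured with 1 higher, and the list's median was -1.61. Stmn1, a microtubule regulator of dividing cells, had 273 and 57 UMIs and a log2 ratio of -2.51, or -1.54 without cells with Adgre1 or Fcgr1. Top2a, the topoisomerase of dividing cells, had 55 and 11 UMIs (-2.57, -3.66 to -1.62), Birc5, which encodes survivin, had 52 and 14 (-2.14, -3.11 to -1.27), and Rrm2, a ribonucleotide reductase subunit, had 30 and 2 (-4.16, -7.27 to -2.18). Mki67, the Ki-67 antigen, had 87 and 34 UMIs (-1.61, -2.22 to -1.02) and was seen in 20 cells of each library. Top cells held 50% of the Rrm2 UMIs in both libraries, 54.5% of the KO UMIs of Top2a, 31.6% of those of Stmn1, and 32.7% and 35.7% of those of Birc5. Without cells with Adgre1 or Fcgr1 Birc5 was at -1.19. In the WT-labelled library a few cells held most of these molecules. Cells with at least 10 of the 22 listed genes numbered 6 of 70 (8.57%, 3.21 to 17.7) in the WT-labelled library and 3 of 86 (3.49%, 0.725 to 9.86) in the KO-labelled library. They held 76.1% and 41.5% of the list's UMIs, and their intervals overlap. Without them (a choice made after seeing the data) the list's median was -0.63. The cycling cells lay in different groups. In the WT-labelled library 2 were in the Ccr7 group, 1 in the Xcr1/Clec9a group and 3 in the Cd209a group, while all 3 of the KO-labelled library were in the Xcr1/Clec9a group. In that group they made up 4.0% and 8.57%, the list's median was -0.63, and Birc5 and Top2a had 0.13 (-1.37 to 1.74) and -0.37 (-1.82 to 1.11). In macrophages the list's median was -0.29 and in FAPs -0.72.

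Interferon-response genes were lower in the KO-labelled library, in 6 of 13 measured with 1 higher, and their median was -0.54. Zbp1, a sensor of Z-form nucleic acid, had 32 and 7 UMIs and a log2 ratio of -2.44. Irf7, a transcription factor of the interferon response, had 38 and 10 UMIs (-2.18, -3.35 to -1.15), and Isg15, a ubiquitin-like modifier, had 113 and 52 (-1.37, -1.87 to -0.89). The direction was shared by other cells, since the list's median was -0.44 in macrophages and -0.37 in FAPs. Irf7 had -1.04 and Zbp1 had -0.67 in macrophages, and Isg15 had -0.52 there and -1.83 in FAPs. Within dendritic cells Isg15 was on the WT side in the Ccr7 and Xcr1/Clec9a groups but at 1.24 in the Cd209a group. Without cells with Adgre1 or Fcgr1 its ratio was -3.29.

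Immediate early and heat-shock genes were higher in the KO-labelled library in 9 of 26, with 1 lower and a median of 0.17. Hspa1b, an inducible HSP70 gene, had 343 and 1688 UMIs, or 469.7 and 1941.4 CPM, and a log2 ratio of 2.05 (1.88 to 2.22). It was seen in 35 of 70 and 73 of 86 cells. Hspa1a had 372 and 1455 UMIs and a log2 ratio of 1.72, but the paralogs are almost identical in sequence, so how their reads were divided is uncertain. Its ratio was -0.07 in the 8 and 15 cells left when cells were thinned before the rule. Hsph1, an HSP110 chaperone, had 68 and 183 UMIs (1.18, 0.77 to 1.60), and Nr4a1, an immediate early nuclear receptor, had 84 and 203 (1.02, 0.65 to 1.41). The list's median was 0.05 in macrophages and 0.50 in FAPs, where Hspa1b and Hspa1a were on the KO side as well. Why cells of several types shared this direction was not tested.

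**Figure D4:**
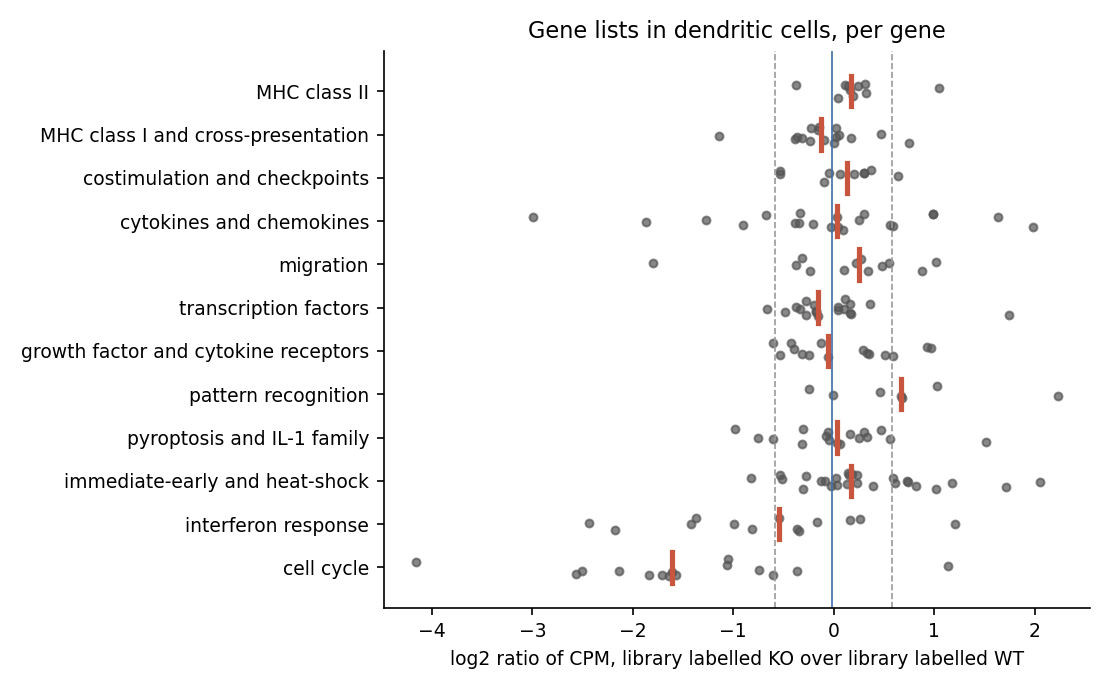
Log2 ratio of CPM, KO over WT, of each listed gene with at least 20 UMIs in dendritic cells (points), by gene list. Red bars are list medians, the blue line is the median of all genes at -0.02 and dashed lines mark 1.5-fold. The cell cycle list stands lowest at -1.61 and pattern recognition highest at 0.67.

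Lectin receptors and related sensors were on the KO side as well. Of 7 pattern recognition genes that had enough UMIs, of 21 listed, 4 were higher in the KO-labelled library and 0 lower, with a median of 0.67, against 0.04 in macrophages. Clec4n, the dectin-2 receptor for fungal mannan, had 5 and 28 UMIs and a log2 ratio of 2.23. Clec4a2, an inhibitory lectin, had 28 and 68 UMIs (1.03, 0.37 to 1.72), Clec10a, a galactose-binding lectin, had 95 and 181 (0.68, 0.31 to 1.05), and Clec12a, an inhibitory receptor for uric acid crystals, had 56 and 106 (0.67, 0.19 to 1.16). With at least 3 of the 6 markers required, the list's median turned to -0.30, Clec4a2 to -0.59 and Clec10a to -0.09. Clec12a kept its direction there, at 1.12, and Clec4n had too few UMIs for a ratio.

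Irf4 and Ccr2, both given above for the Cd209a group, had more UMIs in the KO-labelled library. Irf4 had 14 and 56 UMIs, in 8 and 22 cells, and a log2 ratio of 1.75 (0.88 to 2.71), while in macrophages it had -0.38. In the WT-labelled library 1 cell held 35.7% of its UMIs. Its share of cells was 11.4% and 25.6%, against 17.0% and 13.0% in macrophages and 2.88% and 2.24% in FAPs. With every cell thinned to 1000 UMIs it was 2.86% and 4.71%, against 5.15% and 3.53% in macrophages. In the Cd209a group, where it had 12 and 38 UMIs, its ratio was 1.40 (0.43 to 2.47), while the Ccr7 group had 2 and 6 UMIs and the Xcr1/Clec9a group 0 and 12. Ccr2 had 71 and 171 UMIs (1.02, 0.61 to 1.44), in 47.1% and 48.8% of cells (12.9% and 20% thinned, against 0.131% and 0.208% of unthinned FAPs), and -0.12 with at least 3 markers required. Cd209d, a relative of DC-SIGN, had 22 and 91 UMIs (1.80, 1.11 to 2.54). Spi1, which encodes PU.1, was lower with 305 and 230 UMIs (-0.66, -0.91 to -0.41).

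Chemokines differed in both directions, with 5 of 21 cytokine genes higher, 5 lower and a median of 0.03. Ccl5 had 1821 and 594 UMIs (-1.87, -2.0 to -1.73), and 1 cell held 98.0% of those in the KO-labelled library. Ccl17 had 266 and 40 UMIs (-2.99, -3.50 to -2.50), and 1 cell held 78.9% of those in the WT-labelled library. Without the top cell of each library, also chosen after seeing the data, the ratios were -7.10 for Ccl5 and -1.30 for Ccl17. In the Xcr1/Clec9a group Ccl17 was on the KO side, at 1.54, with 6 and 25 UMIs. Over all dendritic cells 1 cell held 32.5% of its KO UMIs. No KO cell of the Ccr7 group held over 8, and the Cd209a group held 3. That cell therefore lies in the Xcr1/Clec9a group and gives most of its 25 UMIs. Ccl22 had 401 and 198 UMIs (-1.27, -1.52 to -1.02), of which single cells held 36.4% and 28.8%. It too was on opposite sides, with 375 and 102 UMIs in the Ccr7 group (-1.85, -2.18 to -1.53) and 13 and 93 in the Xcr1/Clec9a group (2.32, 1.48 to 3.28). The KO cell with 28.8% of Ccl22 lies in the Xcr1/Clec9a group and gives most of its 93 UMIs. No KO cell of the Ccr7 group held over 38, and the Cd209a group held 3. Fscn1, which accompanied these chemokines in the mature cells, had 173 and 59 UMIs (-1.80, -2.26 to -1.37), with 36.4% and 42.4% in the top cells, although Fscn1 cells with Ccr7 were 6 of 70 (8.57%) and 6 of 86 (6.98%).

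On the other side, Cxcl2, a neutrophil chemokine, had 111 and 521 UMIs (1.98, 1.68 to 2.29) in only 9 and 13 cells, with top cells of 55.0% and 31.7%. It was at -2.81 with at least 3 markers required and at 3.93 without cells with Adgre1 or Fcgr1. Cxcl9, an interferon-gamma induced chemokine, had 31 and 115 UMIs (1.64, 1.06 to 2.26), with 32.3% of the WT UMIs in 1 cell. In the Ccr7 group it had 9 and 83 (3.23, 2.24 to 4.41). Its interval spanned 0 in the Xcr1/Clec9a group (-0.26, -1.33 to 0.84) and the Cd209a group (0.74, -0.67 to 2.29). Il1rn, the IL-1 receptor antagonist, had 38 and 130 (1.52, 0.99 to 2.08), and 0.93 in macrophages, or 0.53 without the dendritic cells with Adgre1 or Fcgr1. Spp1, osteopontin, had 11 and 103 UMIs (2.98, 2.08 to 4.02), of which single cells held 45.5% and 50.5%, and its ratio was 0.83 with at least 3 markers required. Of the Spp1 UMIs, 10 and 100 were in the Xcr1/Clec9a group.

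Gasdermin E acts in pyroptosis, a lytic cell death that lets IL-1 cytokines out of the cell. Of 17 genes of this pathway 1 was higher and 3 were lower, with a median of 0.03. Il1b was at 2092.5 and 2493.4 CPM in dendritic cells, a log2 ratio of 0.25 (0.16 to 0.35), and was seen in 46 of 70 and 67 of 86 cells. Those shares were 65.7% and 77.9%, or 42.9% and 63.5% after thinning to 1000 UMIs, against 0.393% and 1.56% in FAPs before thinning. The difference lay in the Xcr1/Clec9a group, with 136 and 767 UMIs (1.98, 1.71 to 2.25), while the ratio was -0.11 (-0.27 to 0.06) in the Ccr7 group and -0.11 (-0.25 to 0.04) in the Cd209a group. The difference between groups was not tested. Macrophages stood lower, at 258.2 and 1314.0 CPM, with a log2 ratio of 2.35. Il18, another IL-1 family cytokine, had 23 and 28 UMIs (0.03, -0.82 to 0.89). Hmgb1, an alarmin, was at -0.75, and Gsdmd, the other main pore-former of pyroptosis, at -0.60.

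**Figure D5:**
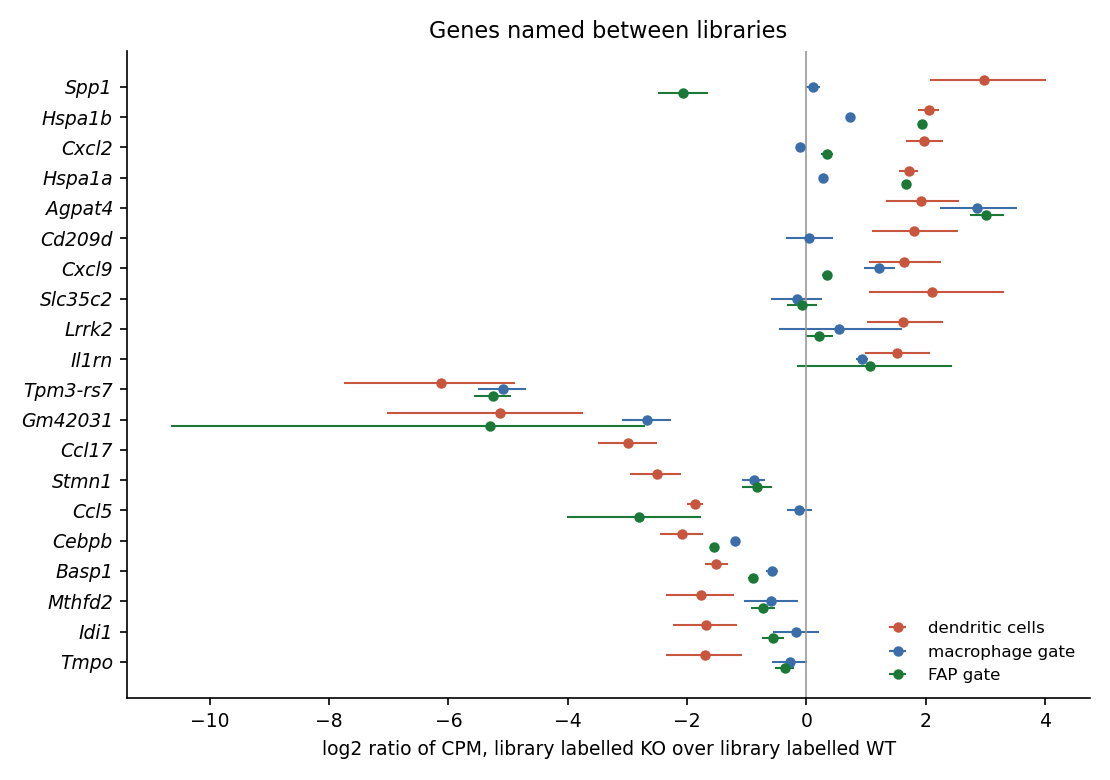
Log2 ratio of CPM, KO over WT, for the 10 genes named in each direction, in dendritic cells, macrophages and FAPs. Bars are exact 95% intervals of counting error, some narrower than the point, and points with under 20 UMIs are left out. Tpm3-rs7, Agpat4 and Cebpb lie on the same side in each of the 3 cell types.

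Some of the most different genes of dendritic cells also differed in other cells. Tpm3-rs7, a copy related to the tropomyosin gene Tpm3 whose reads the parent may share, had 293 and 5 UMIs (-6.12, -7.76 to -4.89), and was seen in 66 of 70 and 5 of 86 cells. It stood at -5.09 in macrophages, -5.25 in FAPs and -5.52 over all cells. Gm42031, a predicted gene, had 118 and 4 UMIs (-5.13, -7.03 to -3.74), and -3.35 over all cells. Agpat4, an enzyme of phospholipid synthesis, had 29 and 131 (1.92, 1.33 to 2.56), and 2.86 in macrophages and 3.02 in FAPs. Cebpb, a transcription factor of myeloid cells, had 296 and 83 (-2.09, -2.46 to -1.73), and -1.19 in macrophages and -1.54 in FAPs. A difference between animals, between libraries and between genotypes cannot be told apart here.

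Several further genes were lower in the dendritic cells of the KO-labelled library. Basp1, a membrane-bound signalling protein, had 757 and 317 UMIs (-1.51, -1.70 to -1.32). Mthfd2, a mitochondrial folate enzyme, had 103 and 36 (-1.77, -2.36 to -1.21), Idi1, of the sterol pathway, had 114 and 42 (-1.69, -2.24 to -1.17), and Tmpo, a nuclear lamina protein, had 82 and 30 (-1.70, -2.36 to -1.08), or -0.92 without cells with Adgre1 or Fcgr1. Higher ones were Lrrk2, a kinase linked to lysosomes, with 28 and 103 UMIs (1.63, 1.01 to 2.29), and Slc35c2, a sugar transporter, with 9 and 46 (2.1, 1.05 to 3.32).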

How the data were processed

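The authors sequenced 5′ 10x Genomics libraries, removed cells over 10% mitochondrial reads and used Seurat 4.3.0 and DoubletFinder 2.0.4. Cell Ranger is given as 7.0.1 in the methods and as 2.1.1, with build mm10, in the submitters' processing notes. The deposited table held the natural log of 1 plus UMIs per 10000 for 19169 genes in 13432 cells, with barcode suffixes naming the library. Per-cell UMIs were recovered by scaling each cell to whole numbers. The largest distance from a whole number was 0.286 UMI. No doublet caller was run here.

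UMIs were summed per library and group and given as CPM. Log2 ratios took exact binomial intervals, with a library at 0 set to 3 UMIs, and shares took exact binomial intervals with Newcombe intervals for differences. Between libraries a gene was tested with at least 20 UMIs in all, and otherwise in each library, and counted past 1.5-fold whatever its interval. Cells were thinned to 1000 UMIs for some shares. Named between libraries were up to 4 genes per list with the widest ratio, Il1b, Il18 and Gsdme, and the 10 genes in each direction whose interval lay farthest from 0 (at least 50 UMIs and 10 cells, same sign as a mean over cells and without the 5% deepest cells). For marker groups and against other immune cells, 8 and 12 leading genes were ranked by the lower interval bound. Other genes given are list members chosen after their values were seen. The members and lists were chosen with earlier results of these data known. The calculation was tested on simulated data. Python 3.11.15, numpy 2.4.6, scipy 1.17.1 and matplotlib 3.10.9 were used.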

Additional observations from a re-analysis of the deposited data

Results flagged for a closer look

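Among the genes named by rule and the genes of the marker lists, 10 had log2 ratios of KO to WT on opposite sides in different marker groups, with intervals of counting error clear of 0. The share of all genes with such opposite sides was not counted, so the number 10 is no result about these genes. Ccl17 was at 1.54 in the Xcr1/Clec9a group and -4.37 in the Ccr7 group, and Ccl22 at 2.32 and -1.85 in the same groups. For both genes, 1 cell held most of the UMIs of the Xcr1/Clec9a group in the KO-labelled library. Retnla was at 5.80 in the Xcr1/Clec9a group and -4.99 in the Ccr7 group. Isg15 was at 1.24 in the Cd209a group, -2.63 in the Ccr7 group and -3.41 in the Xcr1/Clec9a group. Ifi205 was at 3.03 in the Ccr7 group and -0.98 in the Xcr1/Clec9a group, and Irf8 at 0.50 and -0.50 in these groups. Of the monocyte genes, Ly6c2 was at 2.46 in the Cd209a group and -5.88 in the Xcr1/Clec9a group, with 87.0% and 86.1% of its UMIs in 1 cell of each library, and Plac8 at 1.32 and -1.23. Lyz1 was at 0.98 in the Cd209a group and -4.56 in the Ccr7 group. Lyz2 was at 0.74 in the Xcr1/Clec9a group, 0.23 in the Cd209a group and -0.34 in the Ccr7 group. With 1 library per genotype, no difference between groups was tested.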

How the results depend on the processing

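Requiring at least 3 of the 6 markers left 0.504% (WT) and 0.537% (KO) of cells, thinning to 1000 UMIs before the rule left 0.141% and 0.233%, and leaving out cells with Adgre1 or Fcgr1 left 0.818% and 0.791%. The Cd209a group's difference was -14.5 points with 3 markers, and that of the Flt3/Zbtb46 cells 6.67 after thinning. Of 3844 genes tested with 3 markers, 463 were higher and 643 lower in the library labelled KO. After thinning, 177 genes were tested, with 38 higher and 27 lower. Minimums of 10 and 50 UMIs gave 1136 and 272 higher and 1332 and 305 lower, of 7606 and 3466 genes tested. Adding 10 CPM to each level gave 383 higher and 467 lower of 5786. Counts with different numbers tested cannot be compared directly. List medians with 3 markers were 0.10 (class I), -0.70 (cytokines), -0.30 (pattern recognition) and -0.76 (pyroptosis). After thinning they were 0.63 (class II), 0.09 (class I) and -2.57 (cytokines). Without cycling cells, chosen after seeing the data, the cell cycle median was -0.63. Directions turned for Cxcl2 (-2.81 with 3 markers, -1.29 thinned), Hspa1a (-0.07 thinned), Ccr2 (-0.12), Clec4a2 (-0.59) and Clec10a (-0.09), the last 3 with 3 markers. The cause was not tested. Thinning left 8 and 15 cells, so 8 lists gave no value there. No paired analysis was possible because each genotype had 1 library, so none could be left out either.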
